A study of Homo sapiens with 12 samples.

Results

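The genes described here encode the general transcription factors of RNA polymerase II, the TBP-associated factors (TAFs) and the subunits of Mediator. They were taken from the deposited count table as every protein-coding gene whose symbol begins with GTF2, or with MED or TAF and a digit, leaving out TAF1D, which gave 71 of 57704 endogenous genes. The cells were HEK293, an established human embryonic kidney line, with a stable reporter that expresses DARP-EGFP and carries an endogenous intronic sequence. One group received a pool of siRNAs against SUPT4H1, the gene of SPT4, which pairs with SPT5 in the elongation factor DSIF, and the other received scrambled siRNAs, both at 100 nM and harvested after 72 hours. There were 6 libraries per treatment. All 12 transfections were made side by side from 1 culture of this line, and the p-values speak of transfections of a single culture. ERCC RNA standards were added to lysates of 1000000 cells, mix 2 to those with SUPT4H1 siRNA and mix 1 to those with scrambled siRNA. QuantSeq reads the 3′ ends of polyadenylated RNA, and levels are given as CPM, counts per 1000000 endogenous counts after TMM scaling.

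Transcription by RNA polymerase II begins with a preinitiation complex on the promoter. TFIID, made of TBP and the TAFs, recognises the core promoter, TFIIA and TFIIB steady TBP on the DNA, TFIIF brings in the polymerase, and TFIIE recruits TFIIH, which opens the DNA and phosphorylates the polymerase tail. Mediator bridges activators and this complex through head, middle and tail modules joined by the scaffold MED14, and a separable kinase module of CDK8 or CDK19, cyclin C, MED12 and MED13, or their paralogs, controls its contact with the polymerase. Some TAFs also belong to SAGA, a coactivator with a histone acetyltransferase, and others to SL1, the TBP complex of RNA polymerase I.

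SUPT4H1 itself stood at 20.8 ± 1.79 CPM with SUPT4H1 siRNA and 184 ± 8.95 CPM with scrambled siRNA (SD, n = 6 each). Endogenous counts per library lay between 6591194 and 11366971 with SUPT4H1 siRNA and between 7337033 and 20269171 with scrambled siRNA, a difference in depth by the exact permutation test (two-sided, p = 0.0108, or 0.0130 adjusted over this and the spike-in ratio). One library stood apart from its group across the transcriptome. For SUPT4H1 siRNA replicate 6 the chi-square per degree of freedom against the other 5 libraries of its group was 19.4 to 34.7, while the other pairs of that group had 4.45 to 8.28, and it was the library of lowest depth. RNA integrity numbers were 9.6 for SUPT4H1 siRNA replicate 5, 9.8 for replicate 6 and 9.9 or 10 for all others. Scrambled siRNA replicate 2 had 10.8 to 28.96 against its group, and the other scrambled pairs 6.12 to 15.7. The scrambled group was not even in other ways. Scrambled siRNA replicates 5 and 6 had 7.36 against each other, but 11.95 to 28.96 against replicates 1, 2 and 3. Replicates 1 and 3 had 6.12, and replicate 4 had 6.30 to 10.96 against its group. Genes whose outcome in the test of relative change differed without SUPT4H1 siRNA replicate 6 are given both ways. Values of other genes also moved without it, and only some of these are given. Of 7 kidney epithelial and HEK293-lineage markers 6 passed the filter on low counts, with a summed level of 375 to 432 CPM with SUPT4H1 siRNA and 430.2 to 461 CPM with scrambled siRNA. Within this sum the markers moved in opposite directions. EPCAM had a mean of 4.606 CPM with SUPT4H1 siRNA and 21.68 CPM with scrambled siRNA. CDH2, the largest term, had 214.65 CPM with SUPT4H1 siRNA and 179.7 CPM with scrambled siRNA. The means of PAX2, KRT8 and KRT18 were also lower with SUPT4H1 siRNA, and those of LHX1 and KRT19 higher. Neuronal markers, 4 of 4 above the filter and nearly all of it NEFL, summed to 871 to 1013 CPM with SUPT4H1 siRNA and 1193 to 1721 CPM with scrambled siRNA. None of 3 leukocyte, 3 endothelial or 2 hepatocyte markers passed the filter, PTPRC and CDH5 were at 0 in all 12 libraries, and 2 of 4 fibroblast markers passed, with sums of 6.50 to 9.81 CPM with SUPT4H1 siRNA and 6.12 to 11.7 CPM with scrambled siRNA. The part of these differences in the results was not tested.

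Of the 71 genes, 65 had enough counts to be tested, and with SUPT4H1 siRNA 17 rose and 9 fell relative to all other mRNA (adjusted p under 0.05 in edgeR's quasi-likelihood fit across 13820 genes). That is 40.0% of the tested members, against 40.1% of all genes tested, so the share called among them was near that of the transcriptome. Without SUPT4H1 siRNA replicate 6, 17 rose and 13 fell, 46.2% of the members against 42.0% of all genes. TAF5, TAF6, TAF6L, TAF1B, GTF2H3 and MED20 gained a call there, and MED1 and MED13 lost theirs. Without scrambled siRNA replicate 2, 16 rose and 10 fell, 40.0% of the members against 39.1% of all genes. Rises made up 20.3% and falls 19.8% of all genes. The counts given below for each complex are to be read against these shares, and no complex was tested as a set. The median relative log2 fold change was 0.06 over the members and 0.0025 over all genes. No tested member changed by 2-fold or more, beside a small share of 4.25% of all genes, and a difference between these was not tested. Members ranged from −0.76 for MED12L to 0.89 for MED12. For 14 members, 21.5% of those tested, the test was passed and the libraries of the groups did not overlap, against 20.1% of all genes. MED12, MED24, TAF10, MED14, TAF2, TAF13, TAF1C, GTF2H2 and MED28 rose in this way, and TAF5L, GTF2IRD1, MED10, TAF8 and MED12L fell.

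**Figure D1:**
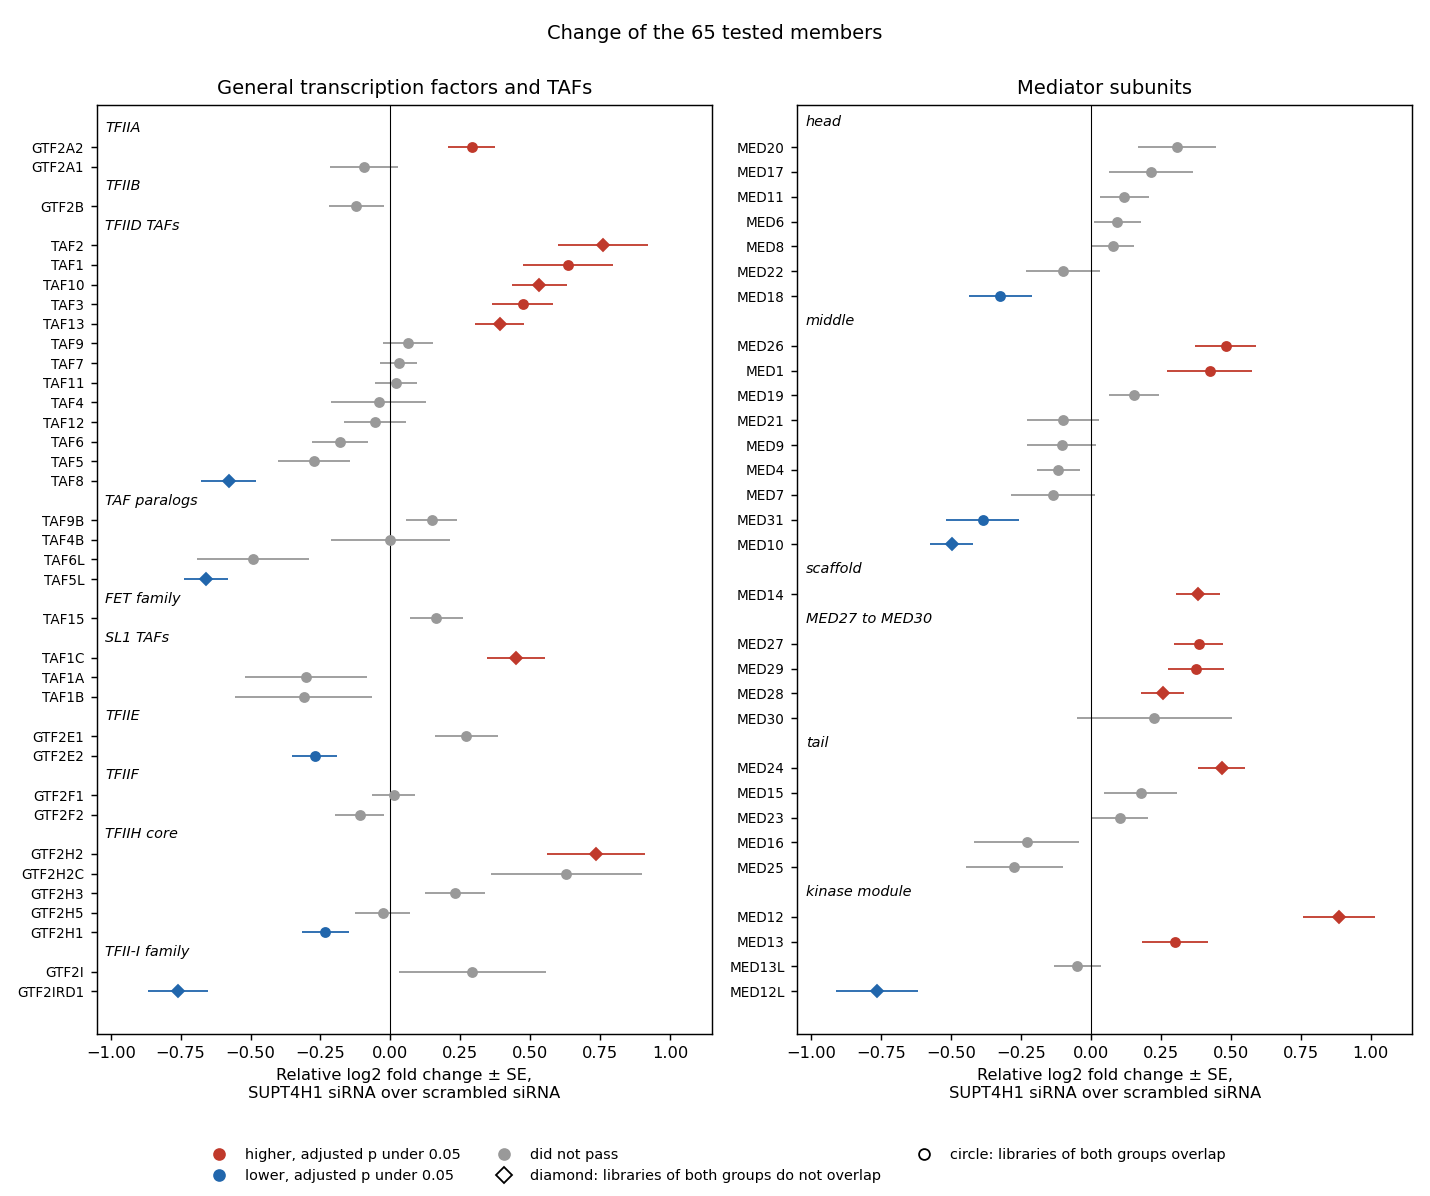
Relative log2 fold change (x axis, SUPT4H1 siRNA over scrambled siRNA, bars are the SE) of the 65 tested members grouped by complex. Red marks the 17 genes that rose, blue the 9 that fell and grey the 39 that did not pass, diamonds mark genes without overlap between the groups, and the values run from −0.76 for MED12L to 0.89 for MED12.

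**Figure D2:**
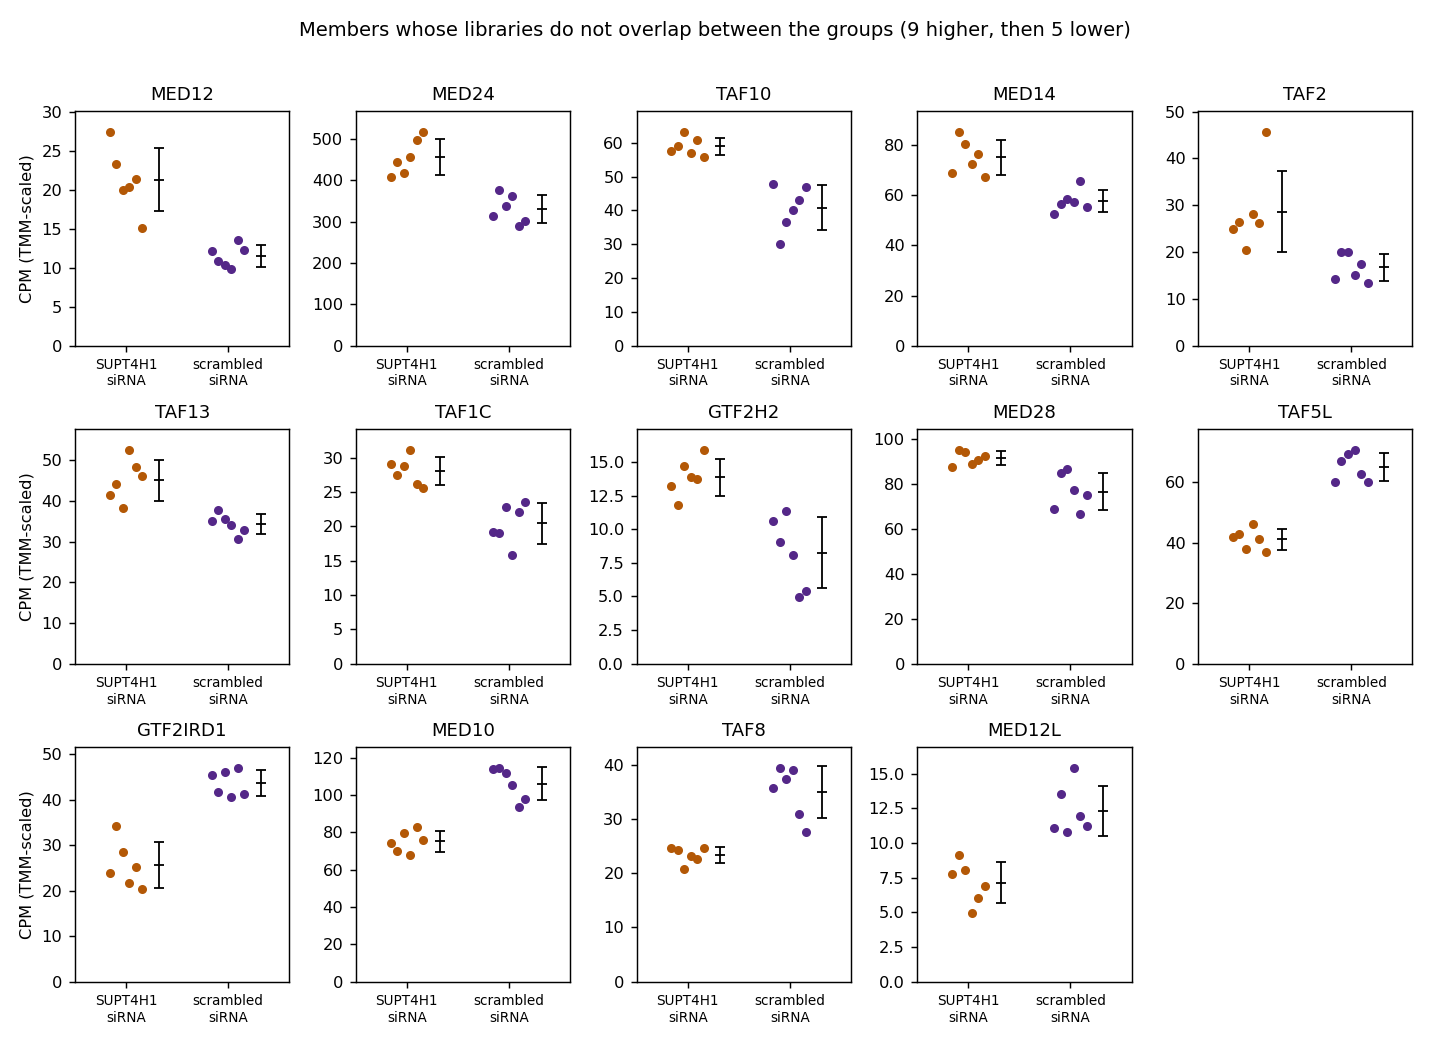
CPM (TMM-scaled, y axis from 0) in every library for the 14 members that passed the test without overlap, SUPT4H1 siRNA on the left and scrambled siRNA on the right of each panel, with the mean ± SD beside the points. The first 9 genes are higher and the last 5 lower with SUPT4H1 siRNA.

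Within the Mediator kinase module 2 of 4 genes rose and 1 fell, where 40.1% of all genes were called. The paralogs MED12 and MED12L moved in opposite directions. MED12, which activates the kinase, had 15.1, 20.9 and 27.4 CPM with SUPT4H1 siRNA, against 9.86, 11.5 and 13.5 CPM with scrambled siRNA (lowest, median and highest of 6 libraries). Every library with SUPT4H1 siRNA lay above every scrambled library, and this was the largest rise among the members (relative log2 fold change 0.89, SE 0.13, adjusted p = 1.43e-05). MED12L, the paralog that can take its place, had 4.94, 7.33 and 9.12 CPM with SUPT4H1 siRNA, against 10.8, 11.6 and 15.4 CPM with scrambled siRNA. Here every library with SUPT4H1 siRNA lay below every scrambled one (−0.76, SE 0.15, adjusted p = 0.000296). MED12 lies on chromosome X from 71118556 to 71142454 on the plus strand, and MED12L on chromosome 3 from 151085697 to 151437072 on the plus strand (GRCh38), where exons of IGSF10 overlap it on the opposite strand. Whether the counting used strand is not stated, so reads of overlapping genes cannot be told apart, here and at all other overlaps, named or not.

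MED13, which links the module to core Mediator, had 41.1, 47.7 and 75.0 CPM with SUPT4H1 siRNA, against 37.4, 40.8 and 45.1 CPM with scrambled siRNA. The groups overlapped, and the rise (0.30, SE 0.12, adjusted p = 0.0472) came to 0.14 (adjusted p = 0.199) without SUPT4H1 siRNA replicate 6. Its call was lost when any 1 of 9 libraries was left out, 4 with SUPT4H1 siRNA (replicates 2, 4, 5 and 6) and 5 scrambled (replicates 1, 2, 3, 4 and 6), and with the replicate number as a block (adjusted p = 0.0825). The paralog MED13L stood at 44.3 ± 4.79 CPM with SUPT4H1 siRNA and 45.8 ± 3.04 CPM with scrambled siRNA (SD, n = 6 each) and did not pass (−0.05, adjusted p = 0.675).

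The kinases and the cyclin of the module, which the symbol rule does not take, were divided as well. CDK8 had 20.6, 24.4 and 27.4 CPM with SUPT4H1 siRNA, against 16.5, 19.9 and 22.5 CPM with scrambled siRNA, and rose (0.31, SE 0.11, adjusted p = 0.0248) with overlap between the groups, a call lost without SUPT4H1 siRNA replicate 1, 2 or 5 or scrambled siRNA replicate 4 or 6 (adjusted p up to 0.0654). CDK19, the paralogous kinase, had 21.3, 24.9 and 28.9 CPM with SUPT4H1 siRNA, against 30.4, 32.7 and 34.2 CPM with scrambled siRNA. It fell, and no library overlapped (−0.39, SE 0.09, adjusted p = 0.00127). CCNC, which encodes cyclin C, had 133, 172 and 187 CPM with SUPT4H1 siRNA, against 219.6, 224 and 258 CPM with scrambled siRNA. All libraries with SUPT4H1 siRNA were again the lower ones (−0.46, SE 0.08, adjusted p = 0.000116).

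**Figure D3:**
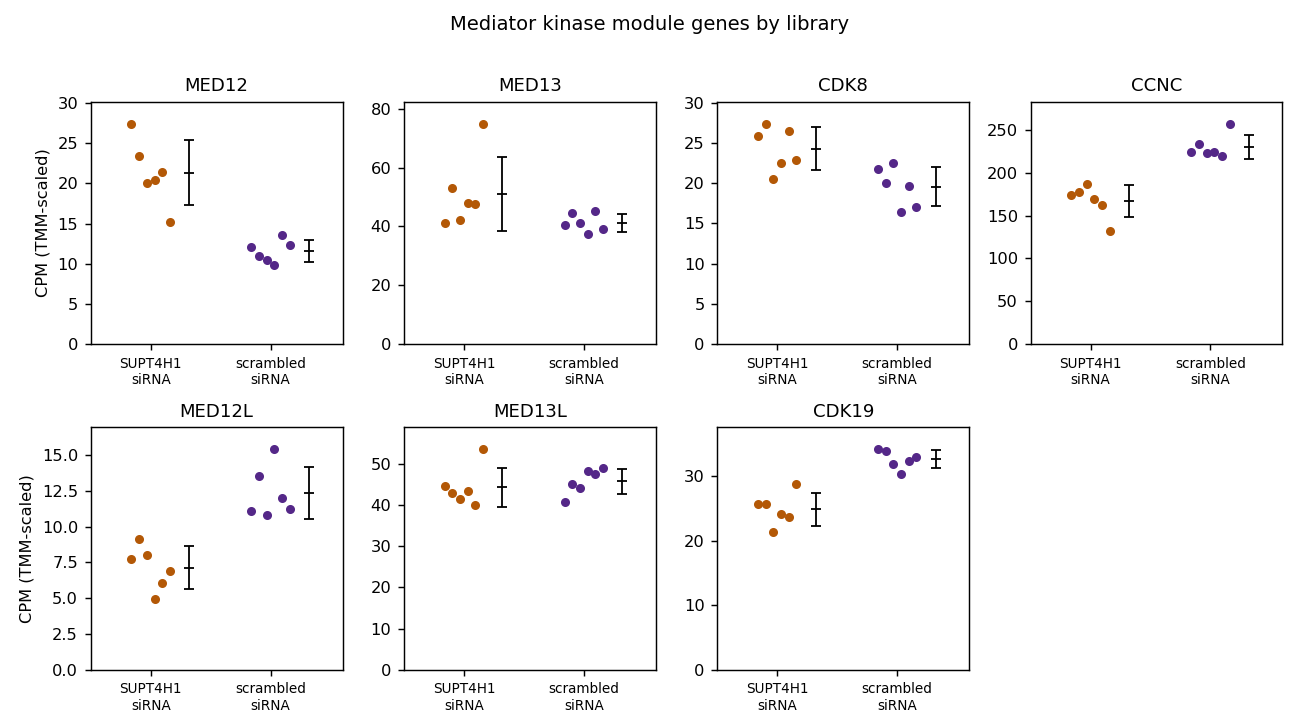
CPM (TMM-scaled, y axis from 0) in each of the 6 SUPT4H1 siRNA libraries (left) and the 6 scrambled siRNA libraries (right) for genes of the Mediator kinase module, with the mean ± SD beside the points. MED12 is higher and MED12L, CDK19 and CCNC are lower in all libraries with SUPT4H1 siRNA, while the groups overlap for MED13, MED13L and CDK8.

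A ratio of 2 genes within a library does not depend on scaling. The log2 ratio of counts is given here for 9 pairs of related genes as a description with no test, since the pairs were chosen after their fold changes had been seen. MED12 to MED12L came to 1.58 ± 0.36 with SUPT4H1 siRNA and −0.09 ± 0.32 with scrambled siRNA (SD, n = 6 each), a 3.18-fold difference. CDK8 to CDK19 came to −0.04 ± 0.17 with SUPT4H1 siRNA and −0.74 ± 0.16 with scrambled siRNA, a 1.63-fold difference. For both ratios the libraries of the groups lay fully apart, which for MED12 to MED12L follows from the CPM values given above. The ratios overlapped between the groups for the other 7 pairs, with differences of 1.03 for GTF2I to GTF2IRD1, 0.38 for TAF5 to TAF5L, 0.33 for MED13 to MED13L, 0.30 for TAF6 to TAF6L, 0.15 for GTF2H2 to GTF2H2C, 0.02 for TAF4 to TAF4B and −0.09 for TAF9 to TAF9B. Without SUPT4H1 siRNA replicate 6 the difference was 0.40 for TAF4 to TAF4B.

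**Figure D4:**
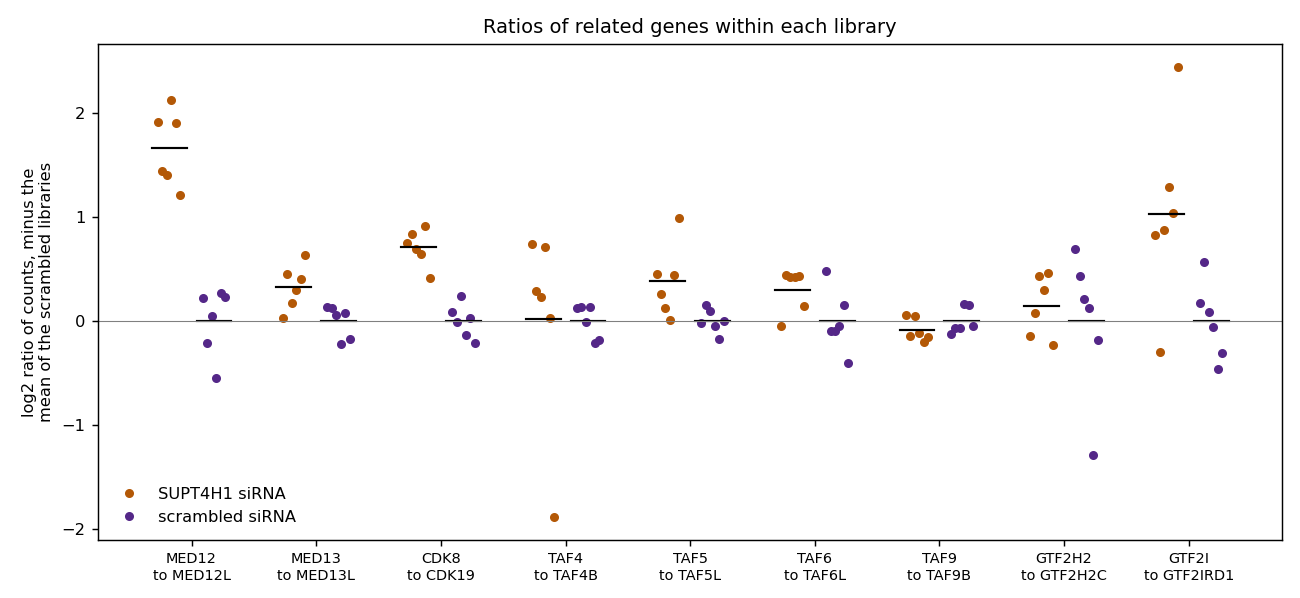
Log2 ratio of the counts of 2 related genes within each library (y axis), less the mean of the scrambled libraries, for the 9 pairs, with bars at the group means, SUPT4H1 siRNA on the left and scrambled siRNA on the right of each pair. The libraries of the groups are fully apart for MED12 to MED12L and for CDK8 to CDK19, and overlap for the other pairs.

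The promoters of MED12 and MED12L are shown because these paralogs moved apart, and those of TAF10 and TAF5L because the first is shared by TFIID and SAGA and rose while the other is a SAGA subunit and fell. They come from RefSeq (GRCh38.p14) and run from 250 bases before to 50 after the start that RefSeq gives, 5′ to 3′ along its strand, with the GC box GGGCGG, a word bound by SP1-family factors, or its reverse complement in capitals. RefSeq's starts differ from the GENCODE gene bounds given with the values, so the TAF10 window lies within the GENCODE gene and the TAF5L window wholly before it.
MED12, chrX:71118346-71118645, plus strand: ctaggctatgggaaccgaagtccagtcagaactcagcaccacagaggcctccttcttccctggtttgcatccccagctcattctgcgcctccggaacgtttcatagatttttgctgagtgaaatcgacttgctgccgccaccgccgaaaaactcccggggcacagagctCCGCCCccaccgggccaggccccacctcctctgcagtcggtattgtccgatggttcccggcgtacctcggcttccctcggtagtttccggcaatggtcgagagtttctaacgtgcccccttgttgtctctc
MED12L, chr3:151085414-151085713, plus strand: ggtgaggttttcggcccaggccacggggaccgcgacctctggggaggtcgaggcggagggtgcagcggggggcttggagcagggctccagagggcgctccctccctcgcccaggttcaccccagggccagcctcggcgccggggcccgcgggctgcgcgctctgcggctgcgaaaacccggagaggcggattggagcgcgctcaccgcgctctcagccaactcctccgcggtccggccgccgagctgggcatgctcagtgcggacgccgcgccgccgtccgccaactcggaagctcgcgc
TAF10, chr11:6612167-6612466, minus strand: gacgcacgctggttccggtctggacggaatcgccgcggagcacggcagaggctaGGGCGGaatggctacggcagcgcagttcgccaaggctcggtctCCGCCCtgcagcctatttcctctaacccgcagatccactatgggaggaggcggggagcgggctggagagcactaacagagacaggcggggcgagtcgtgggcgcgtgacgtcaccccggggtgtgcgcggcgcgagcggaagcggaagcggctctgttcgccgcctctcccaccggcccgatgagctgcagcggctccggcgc
TAF5L, chr1:229626073-229626372, minus strand: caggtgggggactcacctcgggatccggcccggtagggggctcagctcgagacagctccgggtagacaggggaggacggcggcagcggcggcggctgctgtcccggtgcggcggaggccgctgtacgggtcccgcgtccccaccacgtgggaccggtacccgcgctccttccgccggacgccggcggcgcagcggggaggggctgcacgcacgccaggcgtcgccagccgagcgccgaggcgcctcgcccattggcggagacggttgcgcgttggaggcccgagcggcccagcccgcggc
The MED12 window held 1 GC box, the TAF10 window 2, and those of MED12L and TAF5L 0. These genes were picked by their direction of change, and a link of the GC box with direction was not tested. In these windows the TATA box TATAAA, the ETS-family word CCGGAAG and the YY1 word AAGATGG had 0 matches on either strand.

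RefSeq promoters were found for 55 of the 71 members, 67 windows in all, and each word was searched on both strands. TATAAA was in 5.97% of the members' windows and 11.5% of all 35116, and the members that held it were GTF2B, MED16, MED7 and TAF4B. These are among the 39 of 65 tested members that did not pass the test of relative change, and a link was not tested. GGGCGG was in 55.2% of the members' windows and 45.0% of all. CCGGAAG was in 37.3% of the members' windows and 10.3% of all, and AAGATGG was in 14.9% of the members' windows and 5.84% of all. These shares describe letters in a window, not binding.

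In core Mediator, 7 of 26 genes rose and 3 fell, 38.5% called against 40.1% of all genes. MED14, the scaffold, had 67.4, 74.6 and 85.2 CPM with SUPT4H1 siRNA, against 52.4, 57.1 and 65.8 CPM with scrambled siRNA. Its libraries did not overlap (0.38, SE 0.08, adjusted p = 0.000686, chromosome X from 40648306 to 40735858 on the minus strand), and MED14OS lies on the opposite strand. Of MED27, MED28, MED29 and MED30, which sit between head and tail, 3 of 4 rose, against 20.3% of all genes. MED28 had 87.5, 91.8 and 95.1 CPM with SUPT4H1 siRNA, against 66.6, 76.2 and 86.8 CPM with scrambled siRNA, without overlap (0.26, adjusted p = 0.0110), and exons of FAM184B lie opposite it. MED27 (0.39, adjusted p = 0.00172) and MED29 (0.38, adjusted p = 0.00481) rose with overlap, and MED30 (0.23, adjusted p = 0.547) did not pass. MED30 came to 0.09 without SUPT4H1 siRNA replicate 6.

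In the tail, which meets activators, 1 of 5 rose, near the 20.3% of all genes. MED24 had 408, 450.2 and 516 CPM with SUPT4H1 siRNA, against 289.9, 326 and 377 CPM with scrambled siRNA. Its groups lay apart (0.47, SE 0.08, adjusted p = 0.000163, chromosome 17 from 40019097 to 40061215 on the minus strand). MED15, MED16, MED23 and MED25 lay between −0.27 and 0.18 and did not pass. In the head, which contacts the polymerase, 1 of 7 fell, against 19.8% of all genes. That was MED18 (−0.32, adjusted p = 0.0274), whose call was lost when any 1 of 5 libraries was left out (SUPT4H1 siRNA replicates 1, 2 and 5, scrambled siRNA replicates 4 and 6), and the other 6 lay between −0.10 and 0.31. MED20 passed without SUPT4H1 siRNA replicate 6 (0.35, adjusted p = 0.0329).

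The middle module was mixed, with 2 of 9 genes higher and 2 lower, 44.4% called against 40.1% of all genes. MED10, one of its small subunits, had 68.0, 75.3 and 82.7 CPM with SUPT4H1 siRNA, against 93.8, 109 and 114 CPM with scrambled siRNA. All libraries with SUPT4H1 siRNA were the lower ones (−0.50, SE 0.08, adjusted p = 3.08e-05, chromosome 5 from 6371881 to 6378594 on the minus strand). MED31 fell with overlap (−0.39, adjusted p = 0.0244), lies opposite exons of TXNDC17, and lost its call without SUPT4H1 siRNA replicate 2 or 5 or scrambled siRNA replicate 1. MED26, which can dock elongation factors, rose with overlap (0.48, adjusted p = 0.00160). MED1, contacted by nuclear receptors, had 123, 152 and 238 CPM with SUPT4H1 siRNA, against 93.5, 113 and 148 CPM with scrambled siRNA. It rose with overlap (0.42, adjusted p = 0.0383), came to 0.25 (adjusted p = 0.0724) without SUPT4H1 siRNA replicate 6, and lost its call when any 1 of 7 libraries was left out (the others were SUPT4H1 siRNA replicates 2 and 4 and scrambled siRNA replicates 1, 4, 5 and 6), with the replicate number as a block (adjusted p = 0.0785) or with no filter on low counts (adjusted p = 0.118).

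Of the 13 TFIID TAFs, 5 rose and 1 fell, 46.2% called against 40.1% of all genes. TAF2, which contacts promoter DNA together with TAF1, had 20.4, 26.3 and 45.6 CPM with SUPT4H1 siRNA, against 13.4, 16.2 and 20.1 CPM with scrambled siRNA. The groups were apart by a narrow margin (0.76, SE 0.16, adjusted p = 0.000942), and without SUPT4H1 siRNA replicate 6, its highest library, the value was 0.56 (adjusted p = 0.000470). TAF1, the largest TAF, had 70.5, 88.9 and 119 CPM with SUPT4H1 siRNA, against 39.8, 55.9 and 75.1 CPM with scrambled siRNA, with overlap (0.64, SE 0.16, adjusted p = 0.00560). TAF3, which binds the histone mark H3K4me3, also rose with overlap (0.47, adjusted p = 0.00156).

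TAF10, a histone-fold TAF shared with SAGA, had 56.0, 58.3 and 63.2 CPM with SUPT4H1 siRNA, against 30.1, 41.6 and 47.7 CPM with scrambled siRNA. Its libraries did not overlap (0.53, SE 0.10, adjusted p = 0.000211, chromosome 11 from 6606296 to 6612667 on the minus strand), and exons of ILK lie on the opposite strand. TAF8, a histone-fold partner of TAF10, had 20.8, 23.8 and 24.7 CPM with SUPT4H1 siRNA, against 27.5, 36.4 and 39.3 CPM with scrambled siRNA. It fell without overlap (−0.58, SE 0.10, adjusted p = 0.000104, chromosome 6 from 42050513 to 42087461 on the plus strand), so these partner genes moved in opposite directions. TAF13, the histone-fold partner of TAF11, had 38.2, 45.2 and 52.4 CPM with SUPT4H1 siRNA, against 30.5, 34.5 and 37.8 CPM with scrambled siRNA. It rose without overlap (0.39, adjusted p = 0.00147), while TAF11 did not pass (0.02, adjusted p = 0.847).

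TAF4, TAF5, TAF6, TAF7, TAF9, TAF11 and TAF12 lay between −0.27 and 0.06 and did not pass, and TAF9 shares exons with AK6 on the same strand. Without SUPT4H1 siRNA replicate 6, TAF5 (−0.40, adjusted p = 0.00762) and TAF6 (−0.25, adjusted p = 0.0354) fell. The alternative subunits TAF4B (adjusted p = 0.999) and TAF9B (0.15, adjusted p = 0.215) did not pass either. TBP, around which TFIID is built, stood at 19.9 ± 3.27 CPM with SUPT4H1 siRNA and 18.5 ± 3.22 CPM with scrambled siRNA (SD, n = 6 each; 0.09, adjusted p = 0.583). Of TBP and its regulators TBPL1, BTAF1, DR1 and DRAP1, 0 of 5 passed, where 40.1% of all genes were called, with values from −0.05 to 0.18. BTAF1 came to −0.28 (adjusted p = 0.199) without SUPT4H1 siRNA replicate 6, where TBP came to −0.01 and DRAP1 to 0.07.

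Among the TAF paralogs, 1 of 4 tested fell, against 19.8% of all genes. TAF5L, the SAGA counterpart of TAF5, had 36.9, 41.5 and 46.2 CPM with SUPT4H1 siRNA, against 60.1, 65.0 and 70.6 CPM with scrambled siRNA. No library overlapped (−0.66, SE 0.08, adjusted p = 1.46e-06, chromosome 1 from 229593111 to 229626047 on the minus strand). TAF6L, the counterpart of TAF6, stood at 2.80 ± 0.644 CPM with SUPT4H1 siRNA and 3.94 ± 0.854 CPM with scrambled siRNA (SD, n = 6 each) and did not pass (−0.49, adjusted p = 0.0551), but fell when SUPT4H1 siRNA replicate 1 or 6 or scrambled siRNA replicate 1 or 2 was left out (−0.59, adjusted p = 0.0257, without SUPT4H1 siRNA replicate 6). Of 14 other SAGA genes 0 rose and 3 fell, 21.4% against the 19.8% of falls among all genes. TADA1 had 17.2, 27.8 and 32.7 CPM with SUPT4H1 siRNA, against 43.3, 47.8 and 54.0 CPM with scrambled siRNA, without overlap (−0.83, SE 0.12, adjusted p = 1.32e-05). SGF29, a reader of methylated histone H3 (−0.63, adjusted p = 0.000244), and SUPT3H, a histone-fold subunit (−0.57, adjusted p = 0.000108), also fell without overlap. The acetyltransferase genes KAT2A (−0.07) and KAT2B (−0.06), TRRAP (0.27), which binds activators, and the deubiquitinase gene USP22 (0.11) did not pass. TRRAP came to 0.07 without SUPT4H1 siRNA replicate 6.

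**Figure D5:**
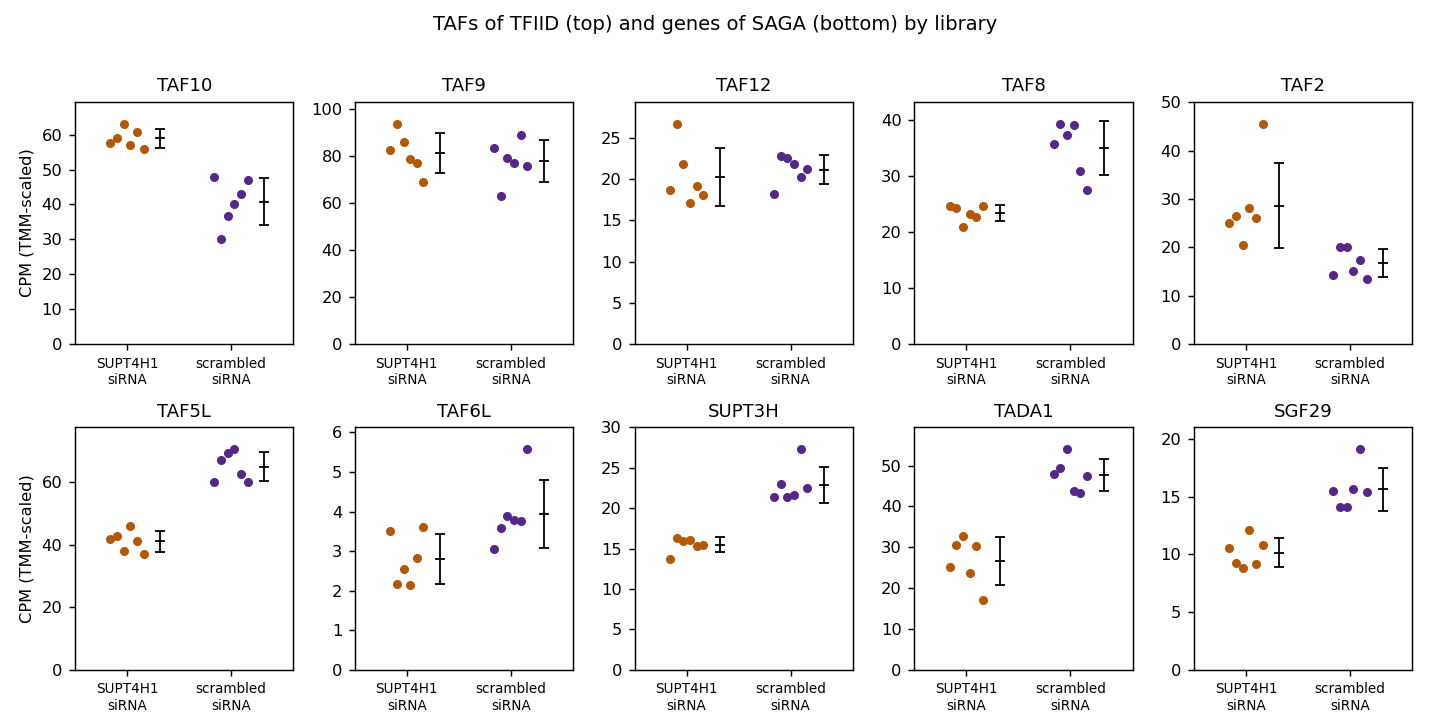
CPM (TMM-scaled, y axis from 0) by library for 5 TAFs of TFIID (top row, of which TAF10, TAF9 and TAF12 are also SAGA subunits) and 5 genes of SAGA (bottom row), SUPT4H1 siRNA on the left and scrambled siRNA on the right, mean ± SD beside the points. TAF10 and TAF2 are higher and TAF8, TAF5L, SUPT3H, TADA1 and SGF29 lower in all libraries with SUPT4H1 siRNA, and TAF9, TAF12 and TAF6L overlap. The bottom row holds the SAGA genes that fell and TAF6L. Among TAF5L, TAF6L and the other SAGA genes measured, 12 of 16 did not pass.

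Of the 3 SL1 TAFs of RNA polymerase I, 1 rose, against 20.3% of all genes. TAF1C had 25.5, 28.1 and 31.1 CPM with SUPT4H1 siRNA, against 15.8, 20.7 and 23.5 CPM with scrambled siRNA. Its libraries did not overlap (0.45, SE 0.10, adjusted p = 0.00155, chromosome 16 from 84177847 to 84187070 on the minus strand), and exons of DNAAF1 lie opposite it. TAF1A (−0.30) and TAF1B (−0.31) did not pass. TAF1B had 6.32, 10.3 and 22.9 CPM with SUPT4H1 siRNA, against 10.4, 14.2 and 18.9 CPM with scrambled siRNA, with its highest value in SUPT4H1 siRNA replicate 6, and fell without that library (−0.62, adjusted p = 0.00266). Their partner TAF1D, a host gene of small nucleolar RNAs left out by the rule, fell (−0.98, adjusted p = 2.18e-09). It stood at 108 ± 8.01 CPM with SUPT4H1 siRNA and 214 ± 13.5 CPM with scrambled siRNA (SD, n = 6 each). Exons of MED17, C11orf54 and CEP295 overlap it on the opposite strand. UBTF (0.51, adjusted p = 0.00215) and RRN3 (0.39, adjusted p = 0.000740), initiation factors of RNA polymerase I, rose with overlap. TAF15, a FET-family RNA-binding protein found with TFIID, did not pass (0.16, adjusted p = 0.177).

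Of the 12 tested genes of TFIIA, TFIIB, TFIIE, TFIIF and TFIIH, 2 rose and 2 fell, 33.3% called against 40.1% of all genes. GTF2A2, the small subunit of TFIIA, stood at 64.0 ± 7.89 CPM with SUPT4H1 siRNA and 52.4 ± 2.55 CPM with scrambled siRNA (SD, n = 6 each) and rose (0.29, adjusted p = 0.00896). GTF2E2, a TFIIE subunit, stood at 102 ± 9.87 CPM with SUPT4H1 siRNA and 123 ± 10.9 CPM with scrambled siRNA and fell (−0.27, adjusted p = 0.0112). For both genes the groups overlapped. GTF2B (−0.12), which encodes TFIIB, and the TFIIF genes GTF2F1 (0.01) and GTF2F2 (−0.11) did not pass. GTF2E1, the other TFIIE subunit (0.27, adjusted p = 0.0619), passed in DESeq2 (adjusted p = 0.0473) and without SUPT4H1 siRNA replicate 1 or scrambled siRNA replicate 5.

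In the TFIIH core, GTF2H2 had 11.8, 13.8 and 15.9 CPM with SUPT4H1 siRNA, against 4.99, 8.59 and 11.4 CPM with scrambled siRNA. It rose without overlap (0.74, SE 0.18, adjusted p = 0.00222, chromosome 5 from 71032670 to 71067689 on the minus strand). Its near-identical copy GTF2H2C did not pass (0.63, adjusted p = 0.0677) except without scrambled siRNA replicate 5 (adjusted p = 0.0313), reads may be split between the copies, and both values are uncertain. GTF2H1 fell with overlap (−0.23, adjusted p = 0.0294) and lost its call without SUPT4H1 siRNA replicate 1 or scrambled siRNA replicate 3 or 6, with the replicate number as a block (adjusted p = 0.0597) or with no filter on low counts (adjusted p = 0.0861). GTF2H3 (0.23, adjusted p = 0.0891) passed without SUPT4H1 siRNA replicate 6 (0.27, adjusted p = 0.0244). Of 5 tested TFIIH partners 3 rose and 1 fell, where 40.1% of all genes were called. The helicase genes ERCC2 (0.31, adjusted p = 0.0170) and ERCC3 (0.25, adjusted p = 0.0413) and the kinase gene CDK7 (0.41, adjusted p = 0.0129) rose with overlap. ERCC2 lost its call without SUPT4H1 siRNA replicate 1 (adjusted p = 0.0518). ERCC3 came to 0.12 (adjusted p = 0.166) without SUPT4H1 siRNA replicate 6 and also lost its call without SUPT4H1 siRNA replicate 4 or scrambled siRNA replicate 1, 4, 5 or 6, or with the replicate number as a block (adjusted p = 0.0873). CCNH, the cyclin of CDK7, had 21.3, 25.6 and 29.5 CPM with SUPT4H1 siRNA, against 40.8, 45.3 and 48.6 CPM with scrambled siRNA. It fell without overlap (−0.84, SE 0.09, adjusted p = 3.81e-07), and exons of RASA1 lie on the opposite strand.

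GTF2IRD1, of the TFII-I family of sequence-specific factors, had 20.5, 24.5 and 34.2 CPM with SUPT4H1 siRNA, against 40.6, 43.6 and 46.9 CPM with scrambled siRNA. The libraries did not overlap (−0.76, SE 0.11, adjusted p = 1.27e-05, chromosome 7 from 74453790 to 74602604 on the plus strand). GTF2I, which has near-identical copies and is uncertain for that reason, did not pass (0.29, adjusted p = 0.403). Its value was −0.03 (adjusted p = 0.907) without SUPT4H1 siRNA replicate 6. The 6 members below the filter were GTF2H4, GTF2A1L, TAF1L, TAF7L, GTF2IRD2 and GTF2IRD2B. GTF2H4, a TFIIH subunit, had 0 counts in all 12 libraries, which allows up to 0.0538 CPM over the libraries with SUPT4H1 siRNA and 0.0319 CPM over the scrambled ones by counting error alone, and it shares exons with VARS2 on the same strand. GTF2A1L, TAF1L and TAF7L had at most 2 counts summed over a group. GTF2IRD2 had 7 counts with SUPT4H1 siRNA and 14 with scrambled siRNA, and GTF2IRD2B had 14 with SUPT4H1 siRNA and 15 with scrambled siRNA.

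Scaled to the ERCC standards of subgroup B, nominally equal in both mixes, 64 of the 65 tested members had values below 0, as did 95.7% of all genes. The log2 ratio of endogenous to standard counts was 8.23 ± 0.57 with SUPT4H1 siRNA and 9.16 ± 0.32 with scrambled siRNA (SD, n = 6 each, two-sided exact permutation p = 0.0130). Fewer cells and less RNA per cell cannot be told apart here, and since mix and group coincide, neither can a difference between the mixes. On this scale 0 members rose and 37 of 65 (56.9%) fell, against 0.304% and 59.0% of all genes, with a median of −0.77 for the members and −0.82 for all genes. The number that fell was 60 without SUPT4H1 siRNA replicate 5 and 22 without scrambled siRNA replicate 4. MED12L (−1.69, adjusted p = 3.73e-05), GTF2IRD1 (−1.58, adjusted p = 5.16e-05) and TAF5L (−1.49, adjusted p = 0.000109) had the lowest values in the edgeR fit. MED12 (0.08, adjusted p = 0.828) was the one member above 0, and TAF2 (−0.03), GTF2H2 (−0.07) and TAF1 (−0.14) were near it.

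The median genomic length was 42119 bases for members that rose, 36949 for those that fell and 30737 for those not called. Exons of another gene lay on the opposite strand for 30 of the 65 tested members and on the same strand for 11.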

How the data were processed

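The authors deposited raw whole-number counts per gene in 1 table for all 12 libraries, made with QuantSeq from 200 ng of RNA each. The submitters' processing notes name FastQC 0.11.5, STAR, MultiQC, R 3.4.3 and the build GRCh38.p10. The counter, its annotation and its strand setting: not given in the sources used here. Symbols are those of the table, and positions and exon overlaps come from GENCODE 29 (GRCh38), which held all 71 members by identifier. Relative changes come from edgeR 4.0.16 in R 4.3.3, with TMM factors over endogenous genes, filterByExpr (13820 genes kept), a robust quasi-likelihood fit with no covariate, and Benjamini-Hochberg adjustment over all genes at 0.05. An SE is the log2 fold change divided by the square root of F. For spike-in scaling, libraries were scaled by the summed counts of 23 ERCC standards of subgroup B, a membership written from general knowledge of the product. Depth and the ratio of endogenous to standard counts were compared by exact permutation in SciPy 1.17.1, and log2 count ratios of related genes (pseudocount 0.5) are described. Library pairs within a group differed beyond sampling noise (30 pairs, chi-square per degree of freedom of 4.45 to 34.7). Members with a call and no overlap are given by library, other called members by fold change, and uncalled ones as ranges or beside a paralog or partner; a few called genes with overlap were given by library after their values were seen. Members and lists were chosen with earlier results of these data known. Alternatives were DESeq2 1.42.0, other scaling and filters, the replicate number as a block, and leaving out each library. Depth limits the precision of low genes, and limits given for 0 counts cover counting error only. The scripts were tested on simulated data.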

Additional observations from a re-analysis of the deposited data

Results flagged for a closer look

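Over all tested members and partner genes, SUPT4H1, the 9 ratios and the 2 measures per library, 1 library stood apart from the rest of its group in 22 of 234 sets of 6 values, where chance alone gives about 11.7 (by the gap to the nearest library as a share of the range of the group). The sets share the same 12 libraries, so the flags are not independent, and the difference of 22 from 11.7 was not tested. SUPT4H1 siRNA replicate 6 gave 14 of the 22. It was the highest of its group for MED1 (238 CPM, the next 157), ERCC3 (152 CPM, the next 117), DRAP1 (134 CPM, the next 109.9), BDP1 (97.1 CPM, the next 57.8), MED13 (75.0 CPM, the next 53.0), MED13L (53.5 CPM, the next 44.6), MNAT1 (45.9 CPM, the next 27.6), TAF2 (45.6 CPM, the next 28.1), TRRAP (28.9985 CPM, the next 17.5), TAF1B (22.9 CPM, the next 11.6), GTF2I (18.3 CPM, the next 8.67) and TAF4B (10.5 CPM, the next 4.86). It was the lowest for GTF3C2 (16.7 CPM, the next 25.4) and for the log2 ratio of TAF4 to TAF4B (−1.09, the next 0.83). Without it, TAF1B fell and MED1, MED13 and ERCC3 lost their calls, as given with those genes.

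In other libraries with SUPT4H1 siRNA, replicate 4 was high for MED31 (74.4 CPM, the next 51.6) and replicate 2 for TAF7 (102.6 CPM, the next 92.3). Among scrambled libraries, replicate 6 was high for CCNC (258 CPM, the next 234), KAT2A (58.4 CPM, the next 48.0) and TAF6L (5.57 CPM, the next 3.89), replicate 5 for SUPT3H (27.3 CPM, the next 23.0) and SGF29 (19.1 CPM, the next 15.7), and replicate 2 for TAF4B (6.03 CPM, the next 4.86).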

How the results depend on the processing

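On the relative scale, counts of members that rose stayed at 15 to 18 and of those that fell at 7 to 13 when single libraries were left out, with medians of 0.03 to 0.08. Over 442 alternative values of the 26 called members, 410 kept direction and call, 32 lost the call and 0 reversed; GTF2H1, MED1, MED13, MED18 and MED31 were the members that lost it. On the spike-in scale the number that fell ran from 22 to 60, the number that rose was 0 in each case, and the median ran from −1.018 to −0.62. Of 390 values there, 13 gained a call and 13 reversed, with ranges across left-out libraries of −0.25 to 0.14 for TAF2, −0.34 to 0.056 for GTF2H2, −0.41 to 0.013 for TAF1 and −0.19 to 0.21 for MED12. The cause was not tested.

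Leaving out single libraries gave differences in the log2 count ratio (SUPT4H1 siRNA minus scrambled siRNA) of 0.27 to 0.39 for MED13 to MED13L, −0.13 to 0.40 for TAF4 to TAF4B, 0.26 to 0.45 for TAF5 to TAF5L, 0.22 to 0.40 for TAF6 to TAF6L, −0.11 to 0.29 for GTF2H2 to GTF2H2C and 0.75 to 1.30 for GTF2I to GTF2IRD1.

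Equal replicate numbers did not pair the samples (correlations of −0.266 to 0.044, 0 of 6 best with their own number). With the replicate block, 15 members rose and 8 fell on the relative scale, 0 rose and 42 fell on the spike-in scale, and MED12 came to −0.016 there; MED1, MED13 and GTF2H1 lost their calls on the relative scale.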

Other observations

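The initiation factors of RNA polymerase III, which share TBP with the factors above, were measured in the same fit. Of these, 2 of 10 rose and 0 fell (edgeR, adjusted p under 0.05), against 20.3% and 19.8% of all genes. GTF3C1, the largest subunit of TFIIIC, had 34.1, 41.7 and 49.6 CPM with SUPT4H1 siRNA, against 19.2, 24.7 and 34.4 CPM with scrambled siRNA. The groups overlapped narrowly (0.71, SE 0.13, adjusted p = 0.000232). GTF3C4, another TFIIIC subunit, had 74.2, 76.3 and 77.8 CPM with SUPT4H1 siRNA, against 59.5, 65.0 and 72.8 CPM with scrambled siRNA, without overlap (0.23, adjusted p = 0.0126), a call lost with no filter on low counts (adjusted p = 0.0640). The other 8 lay between −0.23 and 0.48 and did not pass, with BDP1, a TFIIIB subunit, at 55.7 ± 21.8 CPM with SUPT4H1 siRNA and 39.7 ± 5.32 CPM with scrambled siRNA (SD, n = 6 each). BRF2 fell when SUPT4H1 siRNA replicate 5 or 6 or scrambled siRNA replicate 2 or 4 was left out (−0.26, adjusted p = 0.0368, without SUPT4H1 siRNA replicate 6), and BDP1 rose without SUPT4H1 siRNA replicate 2 or 3 (adjusted p = 0.0382 and 0.0340) and in DESeq2 (adjusted p = 0.0230). Without SUPT4H1 siRNA replicate 6, its highest library, BDP1 came down from 0.48 to 0.22 (adjusted p = 0.114).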
